A study of Mus musculus with 18 samples.

Results

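Hearts of mice kept for 4 weeks under chronic constant hypoxia (CCH) were compared with hearts of controls of the same duration, on 4 of the 18 cDNA microarrays of the series. Each array carried cDNA of a male heart, labelled with the dye Cy5, beside cDNA of a female heart, labelled with Cy3, both from the same condition. Arrays A and B (replicates 1 and 2) of CCH were set against arrays A and B of the controls, and the other 14 arrays (controls, CCH and chronic intermittent hypoxia, CIH, at 1, 2 or 4 weeks) added to the estimate of spread. A gene was included if its named spots gave a value on all 4 arrays, which held for 5866 of the 10225 gene symbols on the array. The labels give no strain, age, oxygen level or schedule of the exposure, no transgene and no agent, nor whether a group's arrays held hearts of separate animals. The p-values therefore measure only the spread between these arrays, which may be technical.

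Each value is the log2 ratio of the channels of an array, after the array was centred on its median, and a difference is the CCH mean minus the control mean of that ratio. The labels do not state which channel is divided by which. Male over female is the likely direction: Eif2s3y, which lies on the Y chromosome and encodes part of a translation initiation factor, had a centred log2 ratio of 1.16 and 1.61 on CCH arrays A and B and of 1.24 and 1.00 on control arrays A and B, and was positive on 17 of 18 arrays. The exception was array A of CIH at 4 weeks, at -0.03, which goes against its label. Xist, the RNA of the inactive X chromosome, would be negative in this direction, and it was a less clear check. It had values on 10 of 18 arrays and was positive on 3 of them. Of the 4 arrays compared, only control array B had a value for Xist, at -0.155. The direction thus rests mainly on Eif2s3y. A higher value in CCH then means more signal from the male heart relative to the female heart than in controls. Which sex changed cannot be read from such a ratio, and in whole hearts fewer cells of a type and less RNA per cell cannot be told apart. Ratios carry no level, so the heart markers could not be checked as levels. Of 8 cardiomyocyte markers on the array, 6 had values on all 4 arrays.

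When oxygen falls, the hypoxia-inducible factors escape degradation and switch on genes of glycolysis, red-cell formation and vessel growth. Sustained hypoxia also narrows the vessels of the lung and loads the right side of the heart, and a loaded heart raises natriuretic peptides such as atrial natriuretic peptide, encoded by Nppa. Heart muscle draws most of its energy from oxidative phosphorylation, the respiratory chain in the mitochondria whose last enzyme consumes oxygen. Some of its subunits are made on the mitochondrion's own ribosomes.

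The CCH arrays resembled each other more than the control arrays did. Across the 5866 genes, Pearson's r was 0.66 between the CCH arrays and 0.14 between the controls. CCH array A correlated with control array B at 0.60, close to its r with the other CCH array, so the pattern of a single array does not separate the groups (r is across genes of arrays that share a platform, and genes are not replicates). Control array A stood apart, with r under -0.3 against 4 arrays of other groups and -0.48 at the lowest. It also had the fewest spots with a value, 12650 of 28704 against 14684 to 17904 on the other 3 arrays of this comparison. CCH array A had the widest ratios of the series, with an SD of 0.72 against 0.37 to 0.53 on the others of this comparison. Counts without these arrays are given below for the called genes and for several lists.

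**Figure D1:**
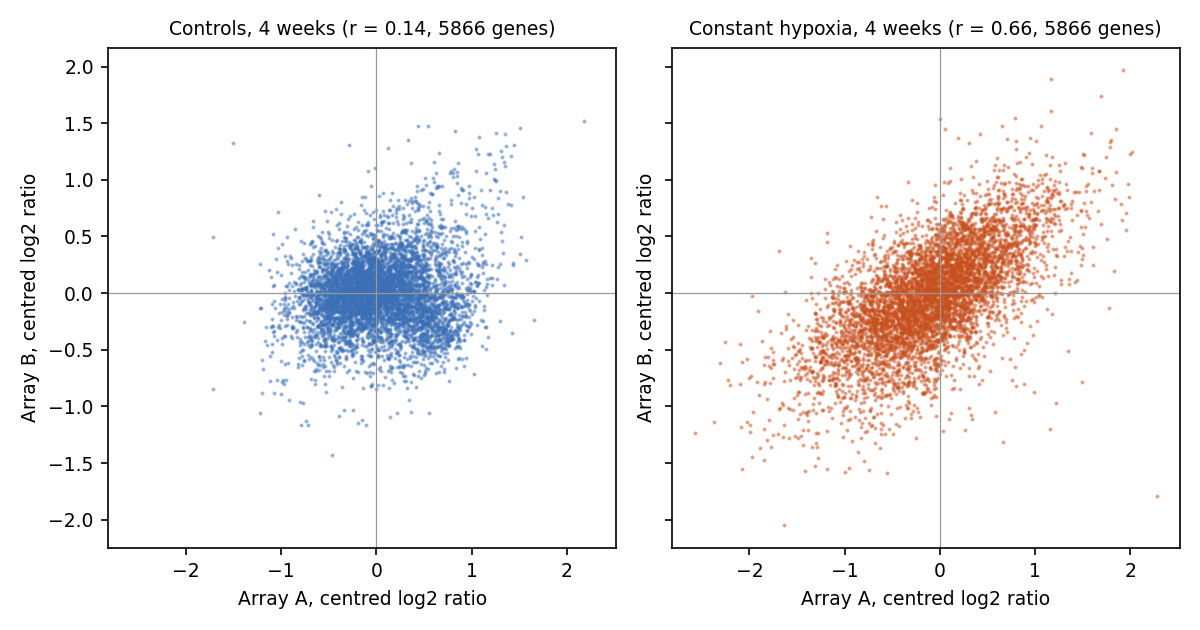
Centred log2 channel ratio of each of 5866 genes (points) on array A (x axis) against array B (y axis), for the 4-week controls (left) and for 4 weeks of constant hypoxia (right). The CCH arrays line up (r = 0.66 across genes), whereas the control arrays form a round cloud (r = 0.14).

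The comparison of CCH with control asks which genes changed their ratio after 4 weeks of constant hypoxia. 7 genes fell and 1 rose at an adjusted p under 0.05 (limma's moderated test over all 5866 genes, Benjamini-Hochberg adjustment). These are 0.119% and 0.017% of the genes tested. At an unadjusted p under 0.05, 611 genes (10.4%) were lower and 316 (5.39%) higher, so 65.9% of them were lower, where 56.3% of all genes differed below 0. This share was 77.1% without centring, 58.9% with the arrays scaled to a common spread, 56.7% without CCH array A and 59.3% without control array A. Of the genes that differed by at least 1 on the log2 scale, 128 were lower and 31 higher, while the median gene differed by -0.06 and by 0.27 in absolute value. Both CCH arrays lay below both controls for 1295 genes (22.1%) and above both for 994 (16.9%), and 551 (9.39%) and 310 (5.28%) of these also had an unadjusted p under 0.05. With 2 arrays against 2, an exact permutation test has 6 relabellings and cannot go below a two-sided p of 0.333, so this separation is a description.

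Mrps28, which encodes a protein of the small subunit of the mitochondrial ribosome, had the smallest p-value. Its ratio was -1.39 and -1.13 on CCH arrays A and B and 0.10 and 0.16 on the control arrays. Both CCH values lay far below both controls, and the arrays of each group were close to each other. The ratio fell by 1.39 ± 0.20 (SE, n = 2 arrays a group) on the log2 scale, 2.62-fold lower, with a limma adjusted p of 0.0269. It was past the threshold in 11 of 19 alternatives and lower in all 19. Non-overlapping groups fix the direction in the fits without 1 array, and the fits that change only the spread keep the difference.

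The other genes that fell had an adjusted p of 0.0495 each, at the edge of the threshold. Dmkn, the gene of the secreted protein dermokine, was at -2.38 and -1.14 on the CCH arrays and at 0.22 and 0.11 on the controls, a difference of -1.92 ± 0.34. Tmem176a, a membrane protein gene, was at -2.57 and -1.23 against 0.13 and 0.03, a difference of -1.98 ± 0.36. In both genes the CCH arrays differed from each other by over 1 unit, with array A the lower, while the controls lay within 0.11 of each other. On the 1 spot of Tmem176a that had a value on all 4 arrays, the difference was -1.74 with an adjusted p of 0.163.

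Nectin2, which encodes a cell adhesion protein of the immunoglobulin family, was at -1.01 and -0.92 on the CCH arrays and at 1.28 and 0.23 on the controls, a difference of -1.72 ± 0.29. Here the CCH arrays agreed and control array A was the high one. Sulf2, a sulfatase that trims heparan sulfate outside the cell, was at -1.23 and -1.04 on the CCH arrays and near 0 on the controls (-0.001 and -0.15), a difference of -1.06 ± 0.19. Cbr1, a carbonyl reductase, was at -0.80 and -0.85 against 0.43 and 0.27, a difference of -1.17 ± 0.21. Both genes had close values within each group and a clear gap between groups. Trib2, a pseudokinase of the tribbles family, was at -0.86 and -1.40 on the CCH arrays and at 0.36 and -0.11 on the controls, a difference of -1.26 ± 0.23.

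Gli3, a transcription factor of hedgehog signalling, was the gene that rose. Its ratio was 1.60 and 1.10 on the CCH arrays and -0.06 and 0.29 on the controls, a difference of 1.24 ± 0.23 with a limma adjusted p of 0.0495. It has 2 spots on the array and neither had a value on all 4 arrays, so the averages compare different spots. In the fit restricted to spots with a value on all 4 arrays, Gli3 was not tested and Mrps28 was the 1 gene called.

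**Figure D2:**
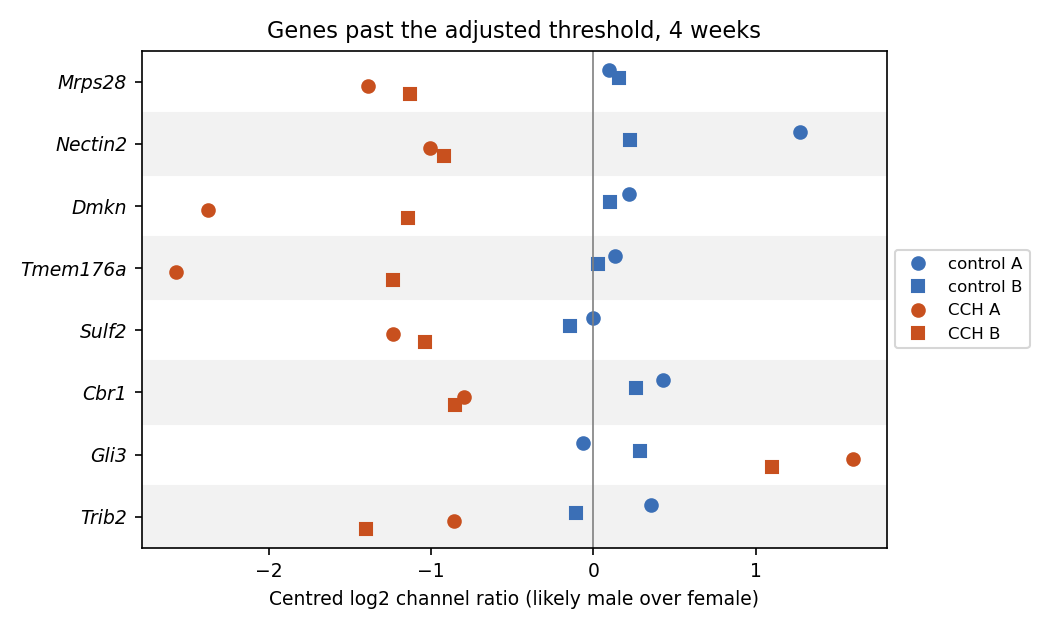
Centred log2 channel ratio (x axis, likely male over female) of the 8 genes past the adjusted threshold (rows), on control arrays A and B (blue circle and square) and CCH arrays A and B (orange circle and square), 1 point an array. Both CCH points lie below both controls for 7 genes and above them for Gli3; the CCH points of Dmkn and Tmem176a lie far apart.

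These calls rest on which arrays are used. The count over both directions was 0 without CCH array A and 0 without control array A. It was 33 without CCH array B (5 of the 8 genes among them) and 20 without control array B (4 of the 8). It was 0 with quantile normalization and 0 with the arrays scaled to a common spread, and 0 where the spread came from the 4 arrays alone. None of the 8 changed sign in any of the alternatives run.

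Below the threshold, the 15 genes per direction with the smallest p-values among those whose groups did not overlap ran to an adjusted p of 0.104 (limma), with differences of 0.82 to 2.18 among the higher and -1.98 to -1.04 among the lower. Next to the called genes on the lower side stood Trim32, a ubiquitin ligase (-1.29 and -0.74 on CCH, 0.09 and 0.09 on control; adjusted p = 0.0618), and Sh3bgr, a gene active in heart and skeletal muscle (-1.70 and -1.25 against -0.32 and -0.37; adjusted p = 0.0789). Rpl31, a protein of the large cytosolic ribosomal subunit, was at -0.70 and -0.25 against 0.62 and 1.06 (adjusted p = 0.0797). For all 15 lower genes the spots with a value on all 4 arrays also kept the groups apart. Of these 15, 6 have a single spot on the array, so for them this repeats the same values. For others, such as Trib2 and Calcoco1, the complete spot gave the whole difference, which is no separate check either.

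The higher side was less sure. Of its 15 genes, 9 kept the groups apart on such spots and 5, Gli3 among them, had none. Jade1, a scaffold protein of a histone acetyltransferase, is an example: its averages were 0.89 and 0.75 on the CCH arrays and -0.17 and -0.11 on the controls (adjusted p = 0.0666), but its 1 complete spot differed by 0.29 with overlapping groups. Epb41l5, a protein of cell polarity and adhesion, had the largest difference of any gene. It was at 1.93 and 1.97 on the CCH arrays and at 0.31 and -0.77 on the controls, a difference of 2.18 ± 0.51 (limma adjusted p = 0.104). Its 1 complete spot gave the same value, so that spot is no separate check. Control array B of 2 weeks was at 1.80, close to the CCH arrays. Nppa, described below, ran much like Epb41l5 on the 4 arrays (1.69 and 1.74 against 0.22 and -1.06) and on that control array (1.83). On the 1-week controls the genes differed, at 0.09 and -0.23 for Epb41l5 and at 1.03 and 0.71 for Nppa. Whether their spots share signal was not tested.

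Some of the genes with small p-values, like 64.8% of the tested genes with a promoter entry, carry the DNA motif that hypoxia-inducible factors bind. The promoters of 3 called genes are shown because they differ in it. The motif was searched as ACGTG or GCGTG on either strand, in the window of 300 bases around the start of transcription given by the RefSeq promoter table of build GRCm38.p6. Capitals mark each match, in the gene's own direction. Trib2 has 3 matches at chr12:15816736-15817035 (minus strand), Cbr1 has 2 at chr16:93607587-93607886 (plus strand) and Gli3 has 0 at chr13:15463473-15463772 (plus strand).
Trib2: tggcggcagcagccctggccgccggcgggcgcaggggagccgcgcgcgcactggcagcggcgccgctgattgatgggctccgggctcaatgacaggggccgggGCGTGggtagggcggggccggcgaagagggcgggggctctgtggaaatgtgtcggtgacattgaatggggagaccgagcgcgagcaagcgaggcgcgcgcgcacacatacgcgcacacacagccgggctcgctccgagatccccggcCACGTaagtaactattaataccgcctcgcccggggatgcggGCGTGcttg
Cbr1: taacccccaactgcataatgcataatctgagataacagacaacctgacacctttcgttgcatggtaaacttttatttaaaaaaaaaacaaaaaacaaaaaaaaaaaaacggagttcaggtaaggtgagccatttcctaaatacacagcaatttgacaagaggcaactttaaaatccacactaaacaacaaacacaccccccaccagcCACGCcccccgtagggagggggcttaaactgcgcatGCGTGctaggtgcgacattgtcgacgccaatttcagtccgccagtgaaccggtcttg
Gli3: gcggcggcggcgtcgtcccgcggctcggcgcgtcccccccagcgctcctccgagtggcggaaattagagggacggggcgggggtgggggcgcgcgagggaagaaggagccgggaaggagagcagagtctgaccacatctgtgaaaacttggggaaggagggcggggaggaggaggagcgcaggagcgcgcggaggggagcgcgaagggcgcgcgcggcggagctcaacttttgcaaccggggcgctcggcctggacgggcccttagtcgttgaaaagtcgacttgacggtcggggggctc
The share of promoters with a match at the first listed start was 43.8% in the whole table of 27025 and 64.8% among the 4708 tested genes found in it. It was 8 of 12 (66.7%) among the 15 lower genes and 4 of 11 (36.4%) among the 15 higher ones that the table holds. Of the 8 called genes, 7 had an entry and 3 of these (42.9%) a match at the first listed start, below the 64.8% of the tested genes. With any listed start 5 had a match, Sulf2 and Dmkn added, but the share over all genes was not counted that way. Mrps28 is the gene without an entry. A match is a stretch of letters and no evidence of binding.

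Subunits of the respiratory chain were mostly lower in CCH, though none passed the adjusted threshold. Complex I, which takes electrons from NADH, had values for 32 subunits, and 29 differed below 0 with a median of -0.35 against -0.06 over all genes. For 18 of the 32 (56.2%) both CCH arrays lay below both controls, and for 0 above, against 22.1% and 16.9% of all genes. At an unadjusted p under 0.05, 6 (18.8%) were lower and 0 higher, against 10.4% and 5.39% of all genes. With quantile normalization or scaled arrays 10 of the 32 (31.2%) lay below both controls, against 18% and 18.1% of all genes. Fewer arrays overlap less by construction: leaving out 1 array gave 19 to 28 (59.4% to 87.5%), against 32.7% to 43.2% of all genes.

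Ndufa11, an accessory subunit of the membrane arm, had the smallest p-value of complex I. It was at -1.13 and -0.76 on the CCH arrays and at -0.17 and 0.25 on the controls, a difference of -0.98 ± 0.23 (limma adjusted p = 0.103). Ndufb4 was at -0.93 and -0.60 against 0.04 and -0.09, and Ndufc1 at -0.79 and -1.23 against -0.31 and 0.08. All 3 separated the groups, and the lower CCH array was A in the first pair of genes and B in Ndufc1. Of the subunits that carry iron-sulfur clusters, Ndufs7 (difference -0.46) and Ndufv2 (-0.54) had both CCH arrays below both controls, and Ndufs1 (-0.13), Ndufv1 (-0.07) and Ndufs8 (-0.29) overlapped, with Ndufv1 at 0.073 under quantile normalization and 0.082 with scaled arrays.

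Complexes II to V gave a like picture with more exceptions. Of 38 members, 30 differed below 0 (median -0.25). For 16 (42.1%) both CCH arrays lay below both controls and for 1 (2.63%) above, against 22.1% and 16.9% of all genes. At an unadjusted p under 0.05, 10 (26.3%) were lower and 1 higher, against 10.4% and 5.39% of all genes. Without CCH array A 22 (57.9%) and without control array A 21 (55.3%) lay below, against 32.7% and 39.1% of all genes. The ATP synthase genes Atp5k (-0.86 and -0.77 on CCH, 0.66 and -0.40 on control) and Atp5h (-0.98 and -1.21 against -0.24 and 0.03), and the cytochrome oxidase gene Cox7a2 (-1.40 and -1.08 against -0.43 and -0.51), had the smallest p-values, with adjusted p from 0.143 to 0.195 (limma). Cox6a1, the cytochrome oxidase subunit found in most tissues, was the 1 member above both controls, at 1.59 and 0.81 against 0.61 and 0.54. Atpif1, the inhibitor of the ATP synthase, was at -2.00 and -1.16 against -0.50 and -0.57.

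Ribosomal proteins leaned the same way. Of 62 cytosolic ribosomal proteins, 56 differed below 0 with a median of -0.38. For 34 (54.8%) both CCH arrays lay below both controls and for 3 (4.84%) above, against 22.1% and 16.9% of all genes. At an unadjusted p under 0.05, 16 (25.8%) were lower and 1 higher, against 10.4% and 5.39% of all genes. Rpl29 was at -1.41 and -1.57 on the CCH arrays and at -0.62 and -0.29 on the controls, and Rps29 at -1.45 and -1.26 against -0.69 and -0.13. The 3 members on the other side were Rpl4 (0.88 and 0.66 against 0.22 and 0.03), Rplp2 and Rpl36a. With quantile normalization 28 (45.2%) and with scaled arrays 27 (43.5%) lay below both controls, against 18% and 18.1% of all genes. Leaving out 1 array gave 37 (59.7%, without CCH array A) to 52 (83.9%, without CCH array B), against 32.7% and 43.2% of all genes. Ribosomal protein genes have many near-identical pseudogenes, so cDNA spots of this family can share signal.

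The mitochondrial ribosome was split. Of 58 proteins, 42 differed below 0 (median -0.22). Both CCH arrays lay below both controls for 23 (39.7%) and above for 7 (12.1%), against 22.1% and 16.9% of all genes. With quantile normalization or scaled arrays 13 (22.4%) lay below, near the 18% and 18.1% of all genes. Without CCH array A 38 (65.5%) and without control array A 30 (51.7%) lay below, against 32.7% and 39.1% of all genes. Beside Mrps28, Mrps16 was low at -1.30 and -1.06 against -0.49 and -0.10. Mrpl40 (1.66 and 0.72 against 0.28 and 0.17), Mrps10 (0.81 and 0.50 against -0.34 and -0.01) and Mrps9 (1.17 and 0.67 against 0.10 and 0.29) were high, each with an unadjusted p under 0.05. Mrps28 was the only one of the 58 past the adjusted threshold.

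**Figure D3:**
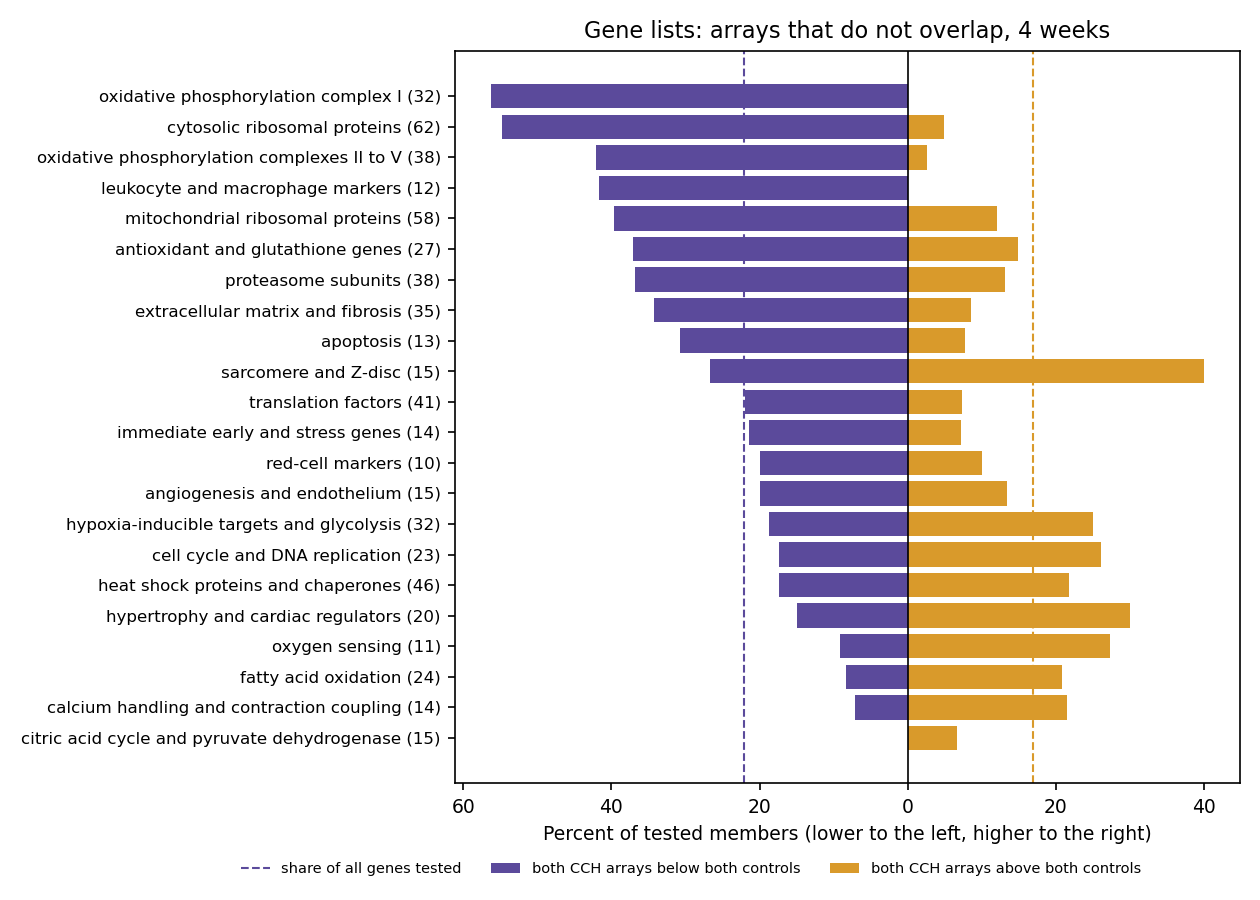
Percent of the tested members of each gene list (number tested in parentheses) for which both CCH arrays lay below both controls (purple, left) or above both (yellow, right). The dashed lines mark the same shares over all 5866 genes, 22.1% and 16.9%; complex I (56.2%) and cytosolic ribosomal proteins (54.8%) extend farthest to the left.

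Among factors that start or extend translation, 9 of 41 lay below both controls and 3 above (22% and 7.32%), a lower share near that of all genes. Eif2d (-0.61 and -0.61 on CCH, 0.06 and 0.29 on control) and Eif3h (-1.29 and -1.36 against -0.41 and -0.43) had close values within both groups. Eif3k was at -1.75 and -1.26 against -0.27 and -0.27, close on the controls only. It was also low on the CIH arrays of 4 weeks, at -1.215 and -1.232. Eif3d, of the same initiation factor complex, differed by 0.54 in the other direction. Proteasome subunits showed 14 of 38 (36.8%) below both controls and 5 (13.2%) above, against 22.1% and 16.9% of all genes. Under quantile normalization or scaling 10 (26.3%) lay below, against 18% and 18.1% of all genes. Without CCH array A 17 (44.7%) and without control array A 22 (57.9%) lay below, against 32.7% and 39.1%. Psme1, a subunit of the activator cap, was at -0.65 and -0.48 against 0.18 and 0.33. Psmb8, an immunoproteasome subunit, was at 1.07 and 1.01 against 0.05 and 0.55.

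Heat shock genes lay on both sides, with 8 of 46 (17.4%) below both controls and 10 (21.7%) above, against 22.1% and 16.9% of all genes. Hspb2, a small heat shock protein of muscle, was at -1.85 and -1.47 on the CCH arrays and at -0.68 and -0.26 on the controls (adjusted p = 0.124, limma), and Cryab, a related chaperone, differed by -0.51. Dnajb1, a partner of Hsp70 proteins, was at 0.67 and 0.88 against 0.13 and 0.22. Of 27 antioxidant and glutathione genes, 21 differed below 0 (median -0.30). Of the 27, 10 (37%) lay below both controls and 4 (14.8%) above, against 22.1% and 16.9% of all genes. Nqo1, a quinone reductase, was lowest of them at -1.33 and -1.04 against 0.11 and -0.38 (difference -1.05 ± 0.25, adjusted p = 0.113). The list had 7 members (25.9%) below both controls with scaled arrays and 6 (22.2%) with quantile normalization, near the 18.1% and 18% of all genes. It had 14 (51.9%) without CCH array A and 14 without control array A, against 32.7% and 39.1%.

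Genes known to respond to low oxygen lay on both sides of the controls. Of 32 hypoxia-inducible and glycolytic genes, 8 (25%) lay above both controls and 6 (18.8%) below, against 16.9% and 22.1% of all genes. Their median difference was 0.06, and 0 passed the adjusted threshold. Of the 32, 3 were higher and 0 lower at an unadjusted p under 0.05, against 5.39% and 10.4% of all genes. Ndrg1, a stress-response gene, was at 0.64 and 0.55 on the CCH arrays and at 0.15 and -0.20 on the controls. Pdk4, the kinase that turns off pyruvate dehydrogenase, was at 0.64 and 0.97 against -0.15 and 0.13, and Pfkl, a phosphofructokinase, at 0.87 and 0.31 against 0.02 and 0.24. The groups overlapped for the glucose transporter gene Slc2a1 (difference -0.22), for Ldha (-0.05), which makes lactate, and for Pgk1 (-0.10).

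The genes of oxygen sensing lay on both sides of 0, and none had an unadjusted p under 0.05. Hif1a, the oxygen-regulated factor subunit, was at 0.11 and 0.08 on the CCH arrays and at -0.60 and 0.32 on the controls, which overlap. Egln3, a hydroxylase that marks this subunit for degradation and is itself a hypoxia target, was at 1.25 and 0.89 against 0.80 and 0.14, a difference of 0.60 with both CCH arrays above both controls. Egln1, Egln2 and Vhl differed by 0.00, 0.01 and 0.01, with a sign that turned without centring. Ep300, a histone acetyltransferase that works with the hypoxia-inducible factors, had the largest difference of the list, -0.74, at -1.13 and -0.03 against 0.65 and -0.34, which overlap. Of the 11 genes on this list, 3 (27.3%) lay above both controls and 1 (9.09%) below, against 16.9% and 22.1% of all genes. Bnip3, a mitophagy receptor, was at 0.46 and 0.35 against 0.20 and 0.13. Vegfa, Myh6, Myh7, Acta1 and Hba-a1 had no spot assigned to them alone. Hmox1 and Hbb-b1 had values on 2 of the 4 arrays, Pdk1 on 3, Xist on 1 and Mb on 0, so none of these was tested.

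Genes of fuel oxidation did not lean to the lower side. Of 24 genes of fatty acid oxidation 5 (20.8%) lay above both controls and 2 (8.33%) below, with a median of 0.12. Of 15 genes of the citric acid cycle and pyruvate dehydrogenase 1 (6.67%) lay above and 0 below. The shares over all genes were 16.9% and 22.1%. Acot2, a mitochondrial thioesterase, was at 0.78 and 1.05 on the CCH arrays and at 0.02 and 0.24 on the controls. Cd36, a fatty acid transporter, was at 1.10 and 0.90 against 0.27 and 0.40. Acadm, Hadha and Acadvl, enzymes of the pathway, overlapped, and the last 2 turned sign with quantile normalization and with scaled arrays. Without CCH array A the median of the fatty acid list was -0.04.

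Nppa had the second largest difference of all genes. Its ratio was 1.69 and 1.74 on the CCH arrays and 0.22 and -1.06 on the controls, so the CCH arrays agreed closely and the controls did not. Controls of other durations were at 1.03 and 0.71 (1 week) and at -0.76 and 1.83 (2 weeks). Control array B of 2 weeks thus lay above both CCH arrays. The difference at 4 weeks was 2.14 ± 0.61, 4.40-fold higher, with an unadjusted p of 0.00384 and an adjusted p of 0.164 (limma), and it did not pass. It was 2.16 without CCH array A, 2.77 without control array A and 1.499 without control array B. Myl7, the atrial form of a myosin light chain, was at 0.93 and 0.48 against -0.76 and -0.60. Sln, a regulator of the calcium pump found mostly in atria, was at 0.86 and -0.03 against -0.42 and -0.63, and Myl4, the other atrial light chain, at 0.67 and 0.42 against 0.37 and 0.19. All 4 atrial genes had both CCH arrays above both controls; they were put together after their values were seen. Myl7 ranged from -2.40 to 3.31 over the other 14 arrays, and its difference of 1.38 had an SE of 1.38. The part that the share of atrial tissue in each heart sample has in these values was not tested.

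Nppb, the second natriuretic peptide, ran the other way, at -0.25 and 0.21 on the CCH arrays and 0.51 and 1.02 on the controls (difference -0.78 ± 0.69). Stat3, a signal transducer of cytokines and growth, was at 0.56 and 0.59 against -0.33 and 0.16 (difference 0.66 ± 0.22, adjusted p = 0.201, limma). Over 20 hypertrophy genes and cardiac regulators, 6 (30%) lay above both controls and 3 (15%) below, against 16.9% and 22.1% of all genes. Of 15 sarcomere and Z-disc genes, 6 (40%) lay above and 4 (26.7%) below, among them Tnnc1, troponin C, on the lower side with a difference of -0.57. In calcium handling, 3 of 14 (21.4%) lay above and 1 (7.14%) below. The calcium pump gene Atp2a2 (difference 0.13) and its inhibitor Pln (0.36) overlapped. Thra, a thyroid hormone receptor, was at 0.94 and 0.70 against 0.51 and 0.38.

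**Figure D4:**
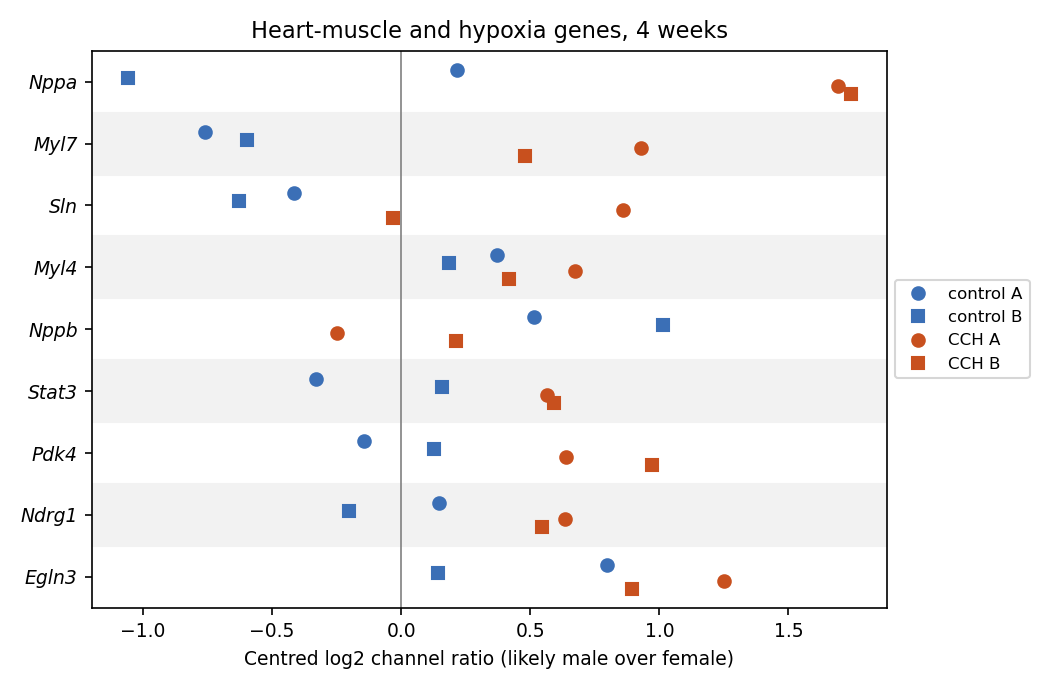
Centred log2 channel ratio (x axis, likely male over female) of 9 heart-muscle and hypoxia genes (rows) on control arrays A and B (blue circle and square) and CCH arrays A and B (orange circle and square). Nppa and Myl7 have both CCH points well to the right of the controls, Nppb has them to the left, and no gene of the plot passed the adjusted threshold.

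Extracellular matrix genes were mostly lower, with 28 of 35 (80%) below 0 (median -0.19), against 56.3% of all genes. Both CCH arrays lay below both controls for 12 (34.3%) and above for 3 (8.57%), against 22.1% and 16.9% of all genes. Fibronectin, Fn1, was at -0.99 and 0.01 on the CCH arrays and at 0.54 and 0.31 on the controls. Its average differed by -0.91, but the 1 of its 2 spots with a value on all 4 arrays differed by -0.39. Biglycan, Bgn, was at -1.06 and -0.61 against -0.37 and -0.17. Elastin, Eln, ran the other way at 1.17 and 1.89 against 0.56 and 0.89, and Col1a1 differed by -0.02, with -0.57 to 0.54 over the alternatives. Without CCH array B, 28 of the 35 (80%) lay below both controls, against 43.2% of all genes, and the median was -0.43. Without CCH array A 14 (40%) lay below and 11 (31.4%) above, against 32.7% and 27.8% of all genes. Without control array A 19 (54.3%) lay below, against 39.1%.

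Leukocyte and macrophage markers were mixed. Of 12 tested, 8 differed below 0 and 4 above. Of the 12, 5 (41.7%) lay below both controls and 0 above both, against 22.1% and 16.9% of all genes. The complement genes C1qa (-1.52 and -0.75 on CCH, -0.31 and 0.16 on control) and C1qb (-1.45 and -0.58 against -0.06 and 0.06), and the signal adaptors Tyrobp and Fcer1g, had an unadjusted p under 0.05, while C1qc overlapped. On the other side of 0, also with overlapping groups, were Coro1a (0.41), the class II genes H2-Ab1 (0.33) and H2-Aa (0.31), and Laptm5 (0.15). The list's median on each array was -0.59 and -0.35 in CCH and -0.42 and 0.09 in controls, so these medians overlap as well. Without control array A, 11 of the 12 (91.7%) lay below, against 39.1% of all genes, and without each of the other arrays 6 (50%), against 32.7% to 43.2%. The median difference went from -0.51 to -0.14 over the alternatives. The part of these cells in the other results was not tested.

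Red-cell markers differed below 0 for 9 of 10, with a median of -0.43, but the CCH arrays disagreed. The list's median was 0.90 on CCH array A and 0.06 on array B, against 0.81 and 0.94 on the controls, and the median difference was 0.03 without CCH array B. The embryonic globin genes Hbb-bh1 (0.46 and 0.06 on CCH, 1.32 and 1.20 on control) and Hbb-y (0.93 and 0.25 against 2.18 and 1.52) were the 2 members below both controls. Alas2, the first enzyme of heme synthesis in red cells, was at 1.497 and -0.78 against 0.55 and 1.48. The part of blood in the other results was not tested.

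Other marker lists were small. Below both controls lay 2 of 9 fibroblast, 2 of 8 endothelial, 2 of 4 smooth muscle, 1 of 9 skeletal muscle, 1 of 4 lung, 0 of 2 adipocyte and 1 of 3 nerve markers, and above lay 1, 1, 1, 0, 1, 1 and 1 of them. The shares over all genes were 22.1% below and 16.9% above. Of the remaining lists, cell cycle genes lay below both controls for 4 of 23 (17.4%) and above for 6 (26.1%). Angiogenesis genes did so for 3 and 2 of 15 (20% and 13.3%). Apoptosis genes did so for 4 and 1 of 13 (30.8% and 7.69%), and immediate early genes for 3 and 1 of 14 (21.4% and 7.14%). Mcm2, a replication helicase subunit, was lower by 0.92 and Cdk2, a cell cycle kinase, higher by 0.55, each with an unadjusted p under 0.05. Among X-linked genes that escape inactivation, Kdm6a was at 0.28 and -0.23 on CCH and at -0.59 and -0.45 on control, while Usp9x and Ddx3x overlapped.

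The 4-week differences were set against those after 1 and 2 weeks, which use none of the same arrays. Of 5796 genes with values at all durations, 0 differed between 4 weeks and the mean of 1 and 2 weeks at an adjusted p under 0.05 (limma, smallest adjusted p 0.276). At an unadjusted p under 0.05, 161 genes (2.78%) were higher and 245 (4.23%) lower. The called genes had differences between -0.43 and 0.31 at the earlier durations. Mrps28 differed by -0.43 at 1 week and 0.31 at 2 weeks, Dmkn by 0.26 and -0.04, Tmem176a by -0.04 and -0.04, and Gli3 by -0.10 and 0.08. All 8 had an adjusted p of at least 0.276 for the change with duration, so their difference from the earlier weeks was not established.

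Several list medians differed in sign between durations. The median difference of complex I was -0.51 at 1 week, 0.44 at 2 weeks and -0.35 at 4 weeks, and complexes II to V went through -0.32, 0.31 and -0.25. Antioxidant genes went through -0.39, 0.19 and -0.30. Cytosolic ribosomal proteins were near 0 at 1 week (0.004) and lower after it, at -0.12 and -0.38. Across 5819 genes the 4-week differences correlated with those of 2 weeks at r = 0.38 and with those of 1 week at r = -0.20, a description over genes that share the array and are not independent.

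**Figure D5:**
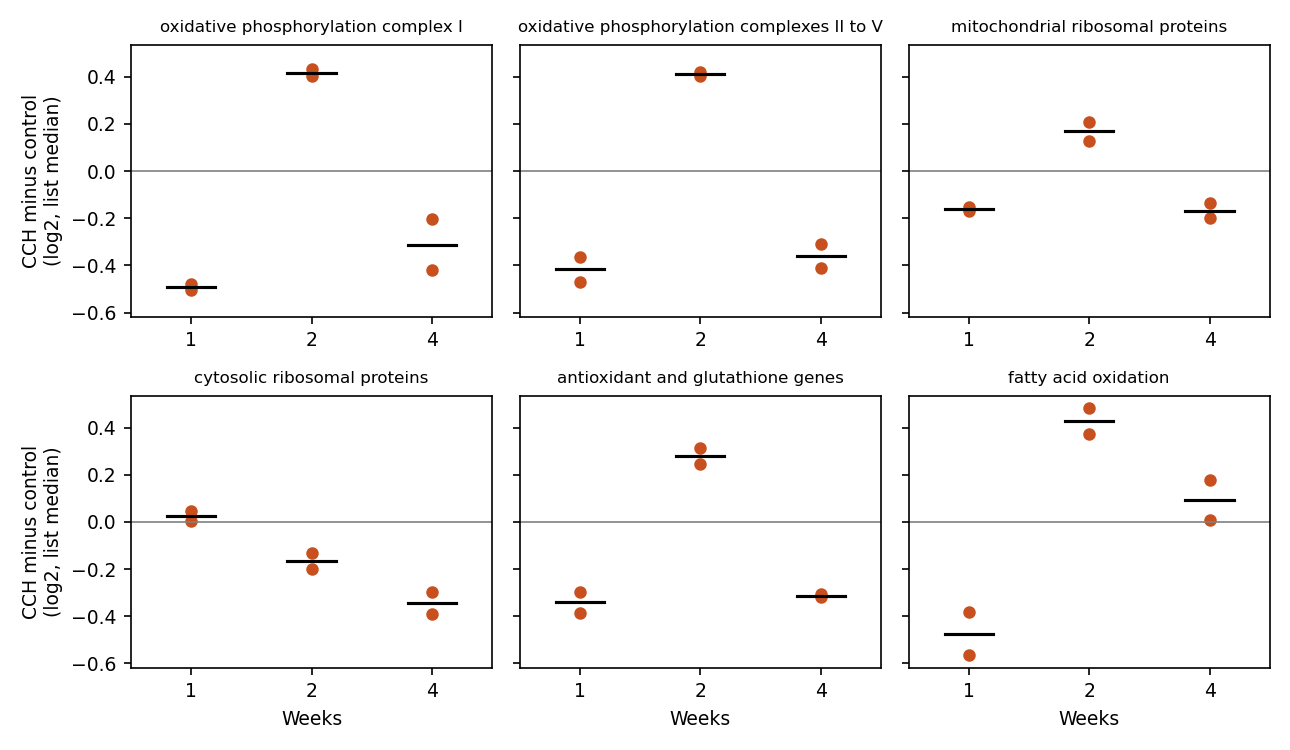
CCH minus control on the log2 scale of 6 gene lists after 1, 2 and 4 weeks (x axis). Each point is the list's median on 1 CCH array minus the mean of the control arrays' medians, and the bar is the mean of the 2 points. Both respiratory lists are below 0 at 1 and 4 weeks and above 0 at 2 weeks, and cytosolic ribosomal proteins are lowest at 4 weeks.

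Constant and intermittent hypoxia of the same duration were compared on the 4-week arrays without any control. Of 5858 genes, 8 (0.137%) were higher in CCH and 6 (0.102%) lower at an adjusted p under 0.05 (limma), and 498 (8.5%) and 527 (9%) at an unadjusted p under 0.05. This count was 0 without CIH array A, the array whose Eif2s3y ratio goes against its label, and 0 without CCH array A. It was 57 and 46 without CCH array B and 2 and 2 without CIH array B. Mrps28 was 1 of the 6, at 0.33 and -0.01 on the CIH arrays and a difference of -1.42 ± 0.20 (adjusted p = 0.0103), beside -1.39 against controls; both comparisons use the same CCH arrays. Sulf2 (-1.09), Hspb2 (-1.86) and Sh3bgr (-1.19) were also lower than in CIH.

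Among the 14 called genes, the 3 largest differences, of Pabpc1, Phtf1 and Cfap36, went with low CIH values and differences of -0.07 to 0.36 from controls. Pabpc1, the cytoplasmic poly(A)-binding protein, was at 1.69 and 0.61 on the CCH arrays and at -1.22 and -1.26 on the CIH arrays, a difference of 2.39 ± 0.30 (adjusted p = 0.00704), and differed by 0.36 from controls. Phtf1, a membrane protein gene, differed by 2.08 from CIH and by -0.07 from controls. Blvrb, a biliverdin reductase abundant in red cells, differed by 1.504 from CIH and by 0.07 from controls.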

How the data were processed

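The 4 arrays of the comparison are 2-colour cDNA microarrays of mouse heart RNA, with male cDNA in Cy5 and female cDNA in Cy3 per the labels. The authors deposited log2 ratios of the channels, scaled so that the mean linear ratio of each array is 1, as the values show. The direction of the ratio, background correction, spot filter and image software are not given in the sources used here, and depth has no counterpart beyond the number of arrays. The 28704 spots divide into 18511 named by a single symbol, 937 with several and 9256 with none, and the last 2 kinds were tested in an alternative only. RefSeq (GRCm38.p6) holds the gene identifier of 18267 of the spots, and 0 symbols changed.

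Values were centred on the array's median and averaged over a symbol's spots, which with gaps can average different spots. Spots of a gene often disagreed. Of 1906 genes with 2 or more spots complete on the 4 arrays, all spots differed in the same direction for 903 (47.4%). Among the 704 of these whose groups did not overlap, it was 470 (66.8%). Genes with values on all 4 arrays entered limma 3.58.1 (R 4.3.3; 9 group means over 18 arrays, contrasts, eBayes with prior degrees of freedom 5.76), two-sided, with Benjamini-Hochberg adjustment over all genes and a threshold of 0.05. The fit was tested on simulated data with independent values and an equal spread on every array. The real arrays had SDs from 0.25 to 0.72, so this does not show how the test behaves under unequal spread. Contrasts were CCH minus control at 4 weeks, its change from 1 and 2 weeks, and CCH minus CIH at 4 weeks. Lists are described by counts and medians. Alternatives changed the centring, scaling, arrays, spot rule, spread and block.

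Named genes are those past the threshold, the 15 smallest p-values per direction among non-overlapping genes, the 5 largest differences, 4 members per list, 23 fixed genes and the calls of the other contrasts. Other list members were named after their values were seen, to show exceptions. The comparison, lists and rules were chosen with earlier results of these data known. The thymus list had 0 tested genes and the list of Y-linked genes 1, Eif2s3y. The title of 1 array, CIH 1 week replicate 1, disagrees with its source, and the code of another, control 2 weeks replicate 1, with its duration. Both only add to the spread and were left out in turn. Figures were drawn with matplotlib 3.10.9.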

Additional observations from a re-analysis of the deposited data

Results flagged for a closer look

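For 14 gene lists and 4 genes, both CCH arrays at 4 weeks differed from the mean of their controls in 1 direction and both CCH arrays of another duration in the opposite direction. For lists the value is the difference between durations of the list's array medians, and this difference was not tested. The sign can rest on a value near 0, such as 0.003 on a CCH array of 1 week for cytosolic ribosomal proteins. At 4 weeks a CCH array gave 0.009 for fatty acid oxidation and -0.005 for cell cycle genes. At 2 weeks a CCH array gave 0.014 for matrix genes. For genes the test of 4 weeks against the mean of 1 and 2 weeks gave 0 calls.

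Against 2 weeks, 4 weeks was lower by these amounts on the log2 scale. Complex I differed by -0.73 and complexes II to V by -0.77. Mitochondrial ribosomal proteins differed by -0.34, proteasome subunits by -0.41 and heat shock proteins by -0.34. Antioxidant genes differed by -0.59, extracellular matrix genes by -0.26, hypertrophy genes by -0.17 and apoptosis genes by -0.34. Mrps28 differed by -1.70.

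Against 1 week, fatty acid oxidation differed by 0.57, sarcomere genes by 0.40 and calcium handling by 0.42, while cytosolic ribosomal proteins differed by -0.37 and cell cycle genes by -0.48. Of the genes, Cbr1 differed by -1.43, Dmkn by -2.18 and Gli3 by 1.33. The median over genes and the mean of array medians differ in sign at 4 weeks for sarcomere genes (-0.03 and 0.08), hypertrophy genes (0.14 and -0.06), cell cycle genes (0.04 and -0.03), hypoxia and glycolysis genes (0.06 and -0.04) and translation factors (-0.07 and 0.01), so these lists have no settled direction.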

How the results depend on the processing

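The 8 genes named as called kept their direction in every alternative run. This was fixed in advance in the fits without 1 of the 4 arrays and in those that change only the spread. Which of the 8 passed depended on the setting. Higher and lower calls numbered 0 and 0 with quantile normalization, after scaling the arrays to equal spread, with the spread of the 4 or of the 6 arrays of 4 weeks, without CIH 1 week replicate 1 in the fit and with unnamed spots tested too. They numbered 0 and 1, the 1 being Mrps28, with the median of the spots, with robust eBayes, and without control 2 weeks replicate 1 in the fit. Without centring 0 genes were higher and 8 lower. In fits added after seeing the data, only spots with a value on all 4 arrays gave 0 and 1, and leaving CIH 4 weeks replicate 1 out of the fit gave 0 and 1. Leaving out each of the 4 arrays gave 0 to 11 higher and 0 to 22 lower calls, 189 to 380 and 247 to 909 at an unadjusted p under 0.05, and 1599 to 2102 and 1921 to 2533 genes without overlap, where fewer arrays overlap less by construction. In the same fits the change with duration gave 0 to 1 higher and 0 to 3 lower calls. CCH minus CIH gave 0 to 57 higher and 0 to 46 lower calls over the fits without 1 array, 2 and 0 with quantile normalization, and 14 lower without centring. Where a group is left with 1 array, that array is assumed to vary like the others.

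The labels do not say whether the A and B letters mark pairs. Across genes, the A minus B differences of CCH and control correlated at -0.38, those of CCH and CIH at 0.45 and those of control and CIH at -0.52. These correlations differ in sign and cannot settle the pairing. With the letters as a replicate block 0 genes were higher and 3 lower. With the crossed pairing as a block, chosen after seeing the data, 12 were higher and 33 lower, with all 8 called genes among the 45.

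At an unadjusted p under 0.05, higher and lower genes numbered 89 and 176 with quantile normalization, 74 and 106 with scaled arrays, 158 and 330 with the spread of the 4 arrays and 155 and 303 with that of 6. With unnamed spots 941 were lower. Medians of several lists (respiratory chain, ribosomes, proteasome, antioxidant, matrix, leukocyte) stayed below 0 in all 7 settings in which list medians were recomputed. So did the median of all genes tested (-0.119 to -0.037) and those of the apoptosis, immediate early and some marker lists. The number of arrays limits the precision of all values.

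Where groups do not overlap, the fits without 1 array cannot turn the sign. No gene past the threshold turned sign in any alternative. Of the genes not past it, some differences from control did, and the cause was not tested. Of 655 list members and named genes, 262 turned sign in at least 1 alternative, 71 with quantile normalization, 68 with scaled arrays and 28 without centring. For genes named by the rule, the ranges over the fits without 1 array were -1.79 to 0.49 for Alas2, -1.26 to 0.068 for Atp2a1, -0.095 to 0.35 for Atp2a2, -1.10 to 0.17 for Bpgm, -0.022 to 0.52 for Cfap36, -0.35 to 0.17 for Cidec, -0.50 to 0.35 for Ddx3x, -0.016 to 0.70 for Dld, -0.22 to 0.69 for Hif1a, -0.58 to 0.007 for Idh3g, -0.17 to 0.061 for Ldha, -1.13 to 0.011 for Nefl, -0.18 to 0.90 for Pabpc1, -0.68 to 0.099 for Pcx, -0.49 to 0.29 for Pgk1, -0.18 to 0.037 for Phtf1, -0.022 to 0.74 for Pln, -0.45 to 0.23 for Sftpb, -0.91 to 0.76 for Sftpc, -1.07 to 0.12 for Tspo2, -0.77 to 0.13 for Vim and -0.30 to 0.10 for Zfp318. Among the same genes, quantile normalization turned Cfap36 at -0.073, Blvrb at -0.13, Ddx3x at 0.13, Cidec at 0.029 and Sftpc at 0.21. Scaled arrays turned Pabpc1 at -0.095, Eif2s3y at -0.11, Cfap36 at -0.084, Blvrb at -0.20, Ddx3x at 0.037, Cidec at 0.019 and Sftpc at 0.23. Of the list members named beside the rule, Hadha turned to 0.10 and 0.082, Acadvl to 0.12 and 0.093, and Egln2 to -0.054 and -0.050, with quantile normalization and scaled arrays in that order. Others turned over the alternatives: H2-Aa ran from -0.79 to 1.42, H2-Ab1 from -0.35 to 1.00, Ndufs1 from -0.54 to 0.28 and Acadm from -0.18 to 0.63. With the median of the spots the turned difference was Ddx3x at 0.014. On complete spots the turned difference was Cfap36 at -0.15.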
